A study of Mus musculus with 6 samples.

Results

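Mouse embryonic fibroblasts (MEF) treated with Tet3 and labelled 1 dpi were compared with MEF on a pair of microarrays, 2 of the 6 arrays of the series. MEF are the mixed primary cells that grow out of a dissociated embryo, here of ICR mice at E13.5. The other arrays hold later times of the treatment and primary neurons. Values are from the authors' table, on a log2 scale with the 75th percentile of each array at 0, and a difference is the 1 dpi value minus the MEF value. A probe was kept where its spot was well above background on the 1 dpi array, on the MEF array, or on both. This left 30330 of 39429 probes and 17060 of the 20659 genes that could be named. A gene above background on 1 array only has a bound in place of a difference, written "at least". This bound holds on the scale of these values only.

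The 1 dpi sample came from MEF that, per the labels' protocols, were given adenoviral supernatants with polybrene on 2 successive days and then an intermediate medium with low glucose and little serum. Its label calls the cells neurons induced by Tet3. Switches to neuronal medium with forskolin were made on day 3 and day 5 after the second infection. The labels do not say from which infection dpi is counted. The label of the MEF sample names no treatment. No sample of the series was labelled as given a virus without Tet3, so infection, the change of medium and Tet3 cannot be told apart, and any culture difference between the samples adds to them. Each group had 1 array, so there was no test between groups and every fold describes these arrays.

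Tet3 is a dioxygenase that oxidises 5-methylcytosine, an early step of DNA demethylation. Infection of fibroblasts with a viral vector can set off the type I interferon response, in which secreted interferon acts through its receptor on STAT and IRF factors and these switch on antiviral genes. Primary MEF cultures usually carry some macrophages and muscle precursors of the embryo beside the fibroblasts. In RNA from a whole culture, fewer cells of a type and less RNA per cell cannot be told apart.

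At 1 dpi, 20 of 68 genes of the interferon response, 14 of 28 targets of p53 and 11 of 21 smooth muscle genes were at least 2-fold higher than in MEF, and 60 of 84 macrophage genes were at least 2-fold lower. Of the 17060 genes, 1919 (11.2%) differed at least 2-fold, 903 of them higher (5.29%) and 1016 lower (5.96%). At least 4-fold differences were found for 178 genes that were higher and 228 that were lower. The median difference over all genes kept was 0.06, and 75.5% of them lay within 1.5-fold. Both arrays were read in the same scan, and 72.9% of probes at 1 dpi and 75.5% in MEF were well above background. No spot was saturated. The scanner software's error model gave a median error of 0.20 for a difference, and the SD of replicate spots had a median of 0.05 on either array; these cover the array and not the culture.

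**Figure D1:**
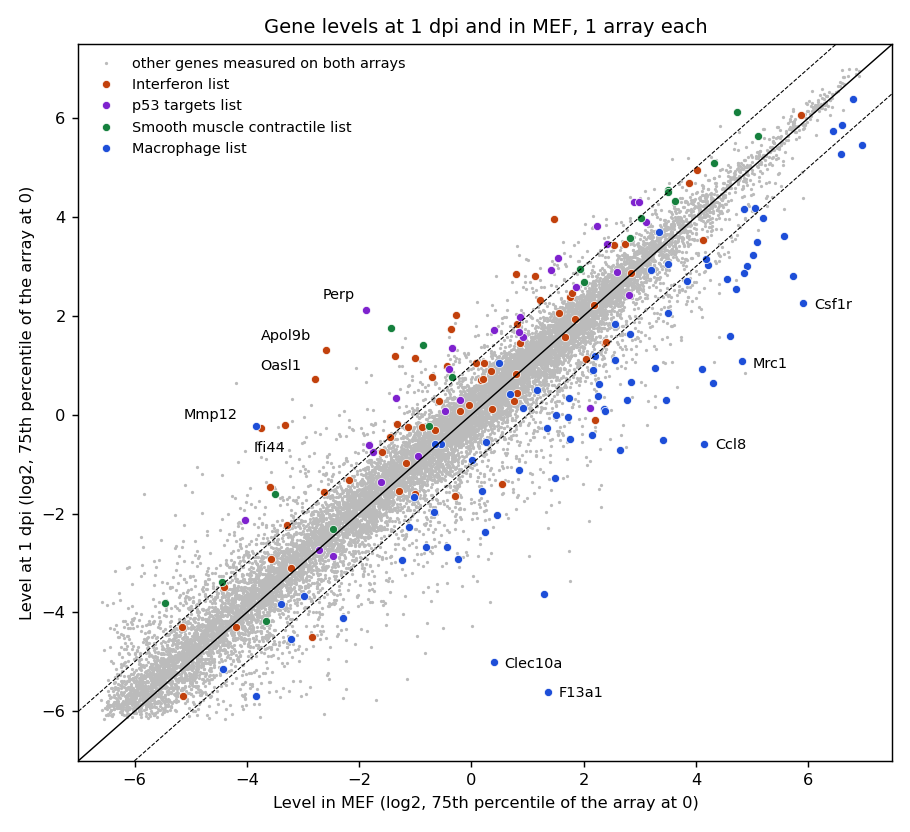
Level of each gene measured on both arrays, 1 dpi on the vertical axis and MEF on the horizontal axis, both log2 with the 75th percentile of the array at 0. The solid line marks equal levels and the dashed lines 2-fold differences. Coloured points are members of 4 gene lists. Most macrophage points lie below the lower dashed line, down to F13a1 and Clec10a, while Perp, Apol9b, Oasl1 and Ifi44 lie far above the upper one.

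Tet3 itself was read by 3 probes. The brightest stood at 1.13 at 1 dpi and -0.22 in MEF, a difference of 1.35. Another stood at -1.99 at 1 dpi and was not well above background in MEF, a difference of at least 4.60. The last went the other way, at -3.64 at 1 dpi and -3.19 in MEF. Where the probes lie relative to the introduced sequence is not known here. Among 26 genes of DNA demethylation and base excision repair kept, Tet3 was the only one at least 2-fold higher, and the uracil glycosylase Ung and the cytidine deaminase Apobec1 were 2.45-fold and 2.96-fold lower. Tet1 stood at -1.19 at 1 dpi and -1.49 in MEF, but its dimmer probe stood at -3.35 at 1 dpi and -2.78 in MEF. Tet2 stood at -1.87 at 1 dpi and -0.98 in MEF. None of 14 genes of DNA methylation and its readers passed 2-fold. The nearest was the de novo methyltransferase Dnmt3a, at 0.25 at 1 dpi and 1.24 in MEF. Of 22 kept germline genes, whose promoters are known to be methylated in somatic cells, 1 passed 2-fold, Tex19.1, at least 2.10-fold higher. With normexp background correction and quantile normalization (normexp from here on) Tex19.1 was at 0.47, within 2-fold. The 10 kinds of E1A spike-in control probe on the array gave medians of 5.91 to 44.4 units of processed signal at 1 dpi and 4.88 to 65.8 in MEF.

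**Figure D2:**
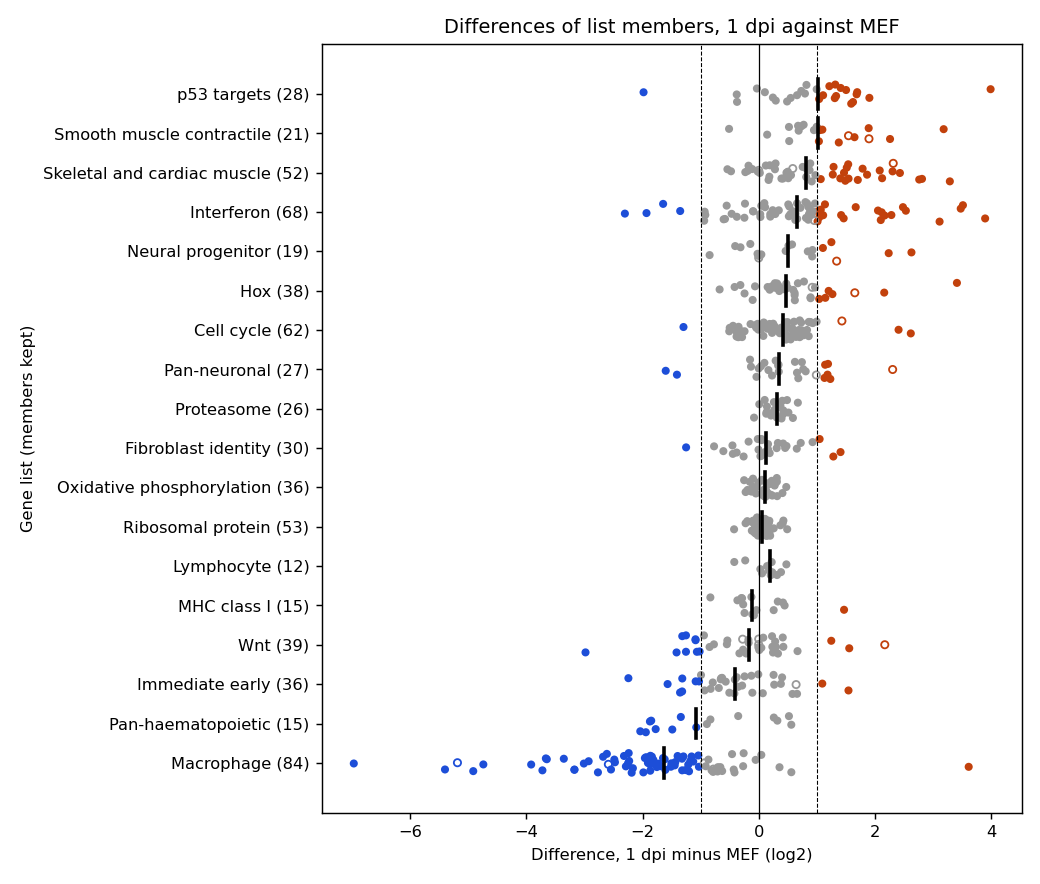
Difference of each kept member of 18 gene lists, 1 dpi minus MEF on the log2 scale, with the number of members kept in brackets. Filled points were measured on both arrays, open points are bounds, orange and blue mark differences of at least 2-fold, and the black bar is the median. The p53 and smooth muscle medians lie near 1.02, the macrophage median lies at -1.63, and the ribosomal, proteasome and oxidative phosphorylation points stay within 2-fold.

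Interferon-response genes stood mostly higher at 1 dpi. Antiviral effectors and their signalling factors stood mostly above MEF, the nucleic acid sensors stood near it, and a few members stood below it. Of 68 genes kept, 20 (29.4%) passed 2-fold above MEF and 4 (5.88%) below it, the median being 0.66 and 52 members lying above 0. Among antiviral effectors, Oasl1, a negative regulator of Irf7 translation related to the oligoadenylate synthetases, stood at 0.72 at 1 dpi and -2.79 in MEF (11.4-fold). Apol9b, an apolipoprotein L family member, stood at 1.30 at 1 dpi and -2.60 in MEF (14.9-fold). Ifit1, which binds viral RNA that lacks cap methylation, stood at 2.01 at 1 dpi and -0.27 in MEF (4.87-fold). The RNA-binding Ifit3 was 4.15-fold higher. All of these were well above background on both arrays. In the whole subgroup of 20 effectors, 8 were higher and 1 lower. Rsad2, or viperin, was 2.10-fold higher, whereas Oas1a, Oas2, Ifit2, Ifitm3 and Eif2ak2 were within 2-fold. With normexp, Rsad2 was at 0.91, within 2-fold, and 17 of the 20 higher members of the whole list remained.

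Signalling factors of the response followed. Usp18, the protease that removes Isg15 and dampens the receptor, stood at 1.18 at 1 dpi and -1.35 in MEF (5.79-fold). Isg15, a ubiquitin-like modifier, stood at 3.96 at 1 dpi and 1.48 in MEF (5.59-fold), and its other probe differed by 2.99. Irf7, the factor that amplifies interferon production, stood at -1.47 at 1 dpi and -3.59 in MEF (4.34-fold). Stat2 and Irf9, which carry the receptor's signal to the promoters, were within 2-fold, at 0.91 and 0.63 above MEF. Among 15 other interferon-stimulated genes, 5 were higher. Ifi44 stood at -0.27 at 1 dpi and -3.75 in MEF (11.1-fold), and Cxcl10, a chemokine for T cells, stood at -0.21 at 1 dpi and -3.33 in MEF (8.66-fold).

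The interferon-inducible GTPases act against intracellular pathogens. Of 13 kept on the list, 3 passed 2-fold, Gbp3 at 2.67-fold, Irgm1 at 2.16-fold and Gbp4 at 2.06-fold, and 11 stood above 0. Families taken by symbol, listed or not, were less uniform. Of 10 kept Gbp genes, 2 were higher and 1 lower, with a median of 0.39. Of 8 Oas genes 0 were higher and 1 lower (median -0.03), and of 12 Irf genes 1 and 2 (median -0.33). Of 13 Ifi genes, 3 were higher and 1 lower (median 0.35). Of 10 sensors and adaptors, Zbp1, a sensor of Z-form nucleic acids, was 2.02-fold higher and Aim2, a sensor of cytosolic DNA, was 3.13-fold lower. The RNA helicases Ddx58 (RIG-I) and Ifih1 (MDA5) stood at 0.59 and 0.53 above MEF, and the DNA sensor Cgas and its adaptor Sting1 stood at -0.25 and -0.09 relative to MEF. Gbp4 and Zbp1 were within 2-fold with normexp, at 0.85 and 0.97.

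Several members went against the median of the list. Ccl5 stood at -0.11 at 1 dpi and 2.20 in MEF (4.94-fold lower), the membrane protein Ifitm1 was 3.82-fold lower, Aim2 is given above, and Irf5 was 2.55-fold lower. Within 2-fold but below 0 were Parp14, Samhd1, Irf1, Gbp7, Ifi27l2a, Oas1g, Trim30a, Oas2, Cgas, Socs1, Gbp5 and Sting1, between -0.94 and -0.09. Macrophage genes were lower on the same arrays, by 2.55-fold in their summed level, and their part in these members was not tested.

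**Figure D3:**
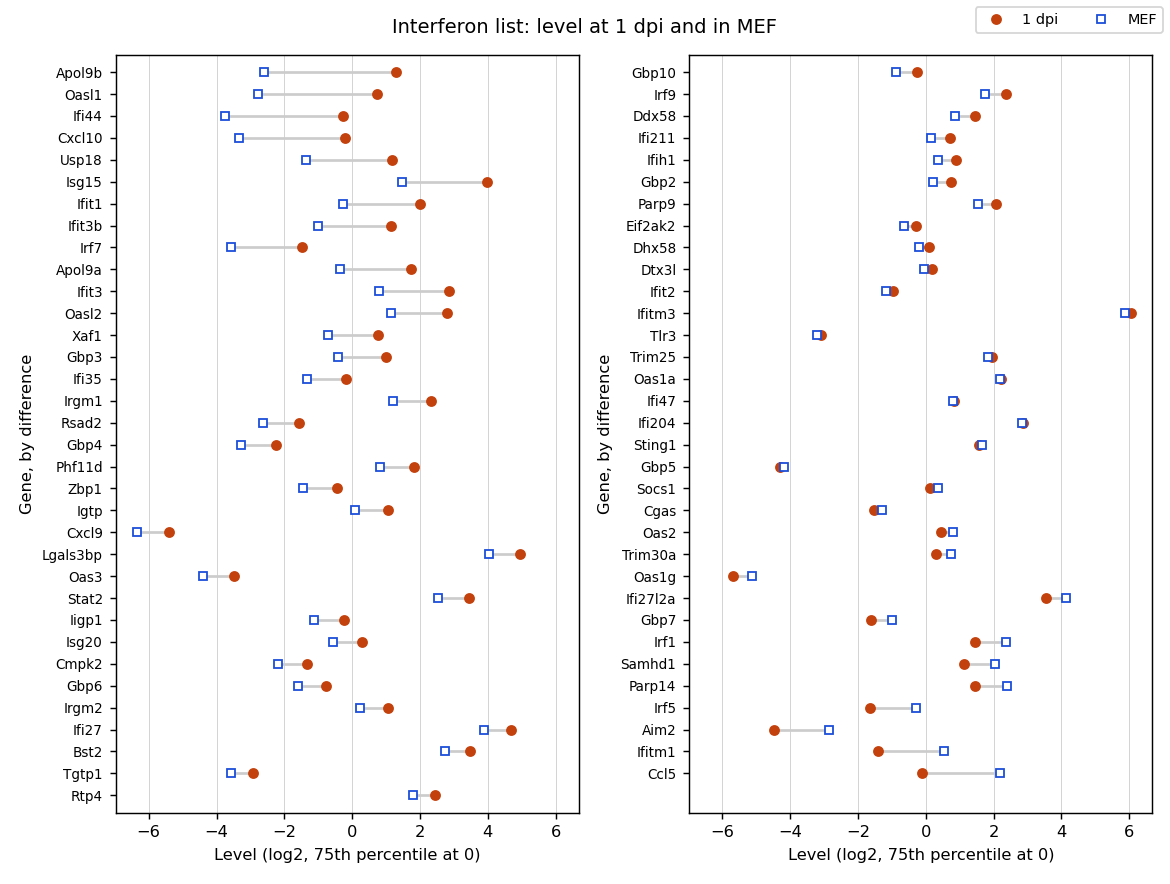
Level of kept members of the interferon list at 1 dpi (filled circles) and in MEF (open squares), log2 with the 75th percentile at 0, ordered by difference from top left to bottom right. The circles lie right of the squares for most genes, and for Ccl5, Ifitm1, Aim2 and Irf5 they lie more than 2-fold to the left.

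The ligand and receptor genes did not follow the response genes. Of 8 kept, 1 was higher and 2 were lower. Ifnar1, a chain of the type I receptor, stood at -0.50 at 1 dpi and 1.40 in MEF (3.73-fold lower) by its brightest probe, and its dimmer probes differed less, by -0.68 and -0.53. Il10rb, a chain shared by the receptors of interferon lambda and interleukin 10, was 2.54-fold lower, and Ifnlr1, the chain specific to interferon lambda, stood at -4.26 at 1 dpi and -5.79 in MEF, a difference of 1.53 that was 0.68 with normexp. Ifna2 stood at -3.39 at 1 dpi and -3.23 in MEF. Class I antigen presentation was near MEF as well. Of 15 genes, the peptide transporter Tap1 alone passed 2-fold (2.77-fold higher), and the heavy chain H2-K1 stood at 5.21 at 1 dpi and 5.30 in MEF. Of 9 class II genes, H2-Ab1 was 3.96-fold higher and the protease Ctss, which is also on the macrophage list, was 3.84-fold lower.

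Promoter sequences of interferon genes that stood higher are shown because members that differ together can be compared by the letters they share. In the RefSeq promoters of build GRCm38.p6, from 250 bases before to 50 after a gene's start, both strands were searched for GAAANNGAAA, the core of the interferon-stimulated response element, and matches (or the opposite strand, TTTCNNTTTC), overlapping ones included, are in capitals, 5′ to 3′ on the gene's strand.
Apol9b, chr15:77729010-77729069, + strand: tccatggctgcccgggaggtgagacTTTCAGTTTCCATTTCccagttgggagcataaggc
Cxcl10, chr5:92349068-92349127, - strand: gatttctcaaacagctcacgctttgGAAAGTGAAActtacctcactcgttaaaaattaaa
Isg15, chr4:156200862-156200921, - strand: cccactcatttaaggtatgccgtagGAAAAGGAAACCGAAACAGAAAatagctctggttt
Ifit1, chr19:34640760-34640819, + strand: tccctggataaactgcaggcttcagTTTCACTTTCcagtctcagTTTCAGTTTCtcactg
Gbp3, chr3:142559974-142560033, + strand: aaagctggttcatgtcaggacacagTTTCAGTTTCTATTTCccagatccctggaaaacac
Irgm1, chr11:48871416-48871475, - strand: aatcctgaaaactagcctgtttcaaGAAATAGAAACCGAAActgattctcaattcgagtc

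The motif was in 3.94% of the promoters of kept genes that could be matched (532 of 13509). It was in 10 of the 17 matched interferon members at least 2-fold higher and in 18 of the 31 within 2-fold, 58.8% and 58.1%. The share was thus near equal in members that differed and members that did not. It was in 0 of the 3 matched members that were lower. The windows of Apol9a and Apol9b had identical letters, as had those of Ifit3 and Ifit3b, and hybridisation to such near copies may be shared, so the members of these pairs are uncertain as separate results. A match describes the letters and is not a shown binding site.

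Targets of p53, the transcription factor that responds to DNA damage and other stress, were among the most shifted lists. Of 28 kept, 14 (50% of the list) stood at least 2-fold above MEF and 1 as far below it, the median being 1.02 and 24 above 0. Perp, a desmosome-associated death effector, stood at 2.12 at 1 dpi and -1.87 in MEF (15.9-fold). Cdkn1a, the p21 inhibitor of cyclin-dependent kinases, stood at 3.16 at 1 dpi and 1.54 in MEF (3.08-fold), and its dimmer probe differed by 2.14. Mdm2, the ligase that degrades p53, stood at 3.45 at 1 dpi and 2.41 in MEF (2.06-fold).

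Death and metabolism genes made up 9 of the 14, with the receptor Eda2r 3.75-fold, the BH3 protein Pmaip1 (Noxa) 3.24-fold, the nuclease Aen 3.02-fold and Trp53inp1 2.84-fold higher. Arrest and signalling genes made up the other 5, among them Gtse1 at 3.22-fold and the cyclin Ccng1 at 2.66-fold. Bax and Fas were within 2-fold, at 0.80 and 0.82 above MEF. Against the list's median, the sestrin Sesn1 stood at 0.14 at 1 dpi and 2.12 in MEF (3.95-fold lower), and Sesn2, Ddb2 and Rrm2b lay between -0.38 and -0.03. With normexp, the same 14 members remained at least 2-fold higher and the median was 0.98.

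Of 7 inhibitors of cyclin-dependent kinases, 3 were at least 2-fold higher and 0 lower. Cdkn2a, the Ink4a/Arf locus, stood at 2.28 at 1 dpi and 0.10 in MEF (4.52-fold), and its dimmer probe differed by 2.32. Cdkn2b stood at 2.01 at 1 dpi and 0.28 in MEF (3.33-fold), while Cdkn1b (p27) stood at 1.55 at 1 dpi and 2.36 in MEF. Of 62 cell cycle genes, 3 (4.84%) stood at least 2-fold above MEF, a share near the 5.29% of all genes, and 1 as far below it, the median being 0.42 and 45 above 0. Those 3 were the G1 cyclin Ccnd1, at 1.38 at 1 dpi and -1.24 in MEF (6.14-fold), the factor E2f2 (5.31-fold), and Cdk6 (at least 2.70-fold), which was at 0.45 with normexp. None of 27 mitosis genes passed 2-fold, but 24 of them stood above 0, led by Ube2c and Cdc20 at 1.00 and 0.93. Replication genes stood nearer to MEF, 17 of 29 above 0, with Mcm2, Mcm3, Mcm4, Mcm6 and Pcna between -0.36 and -0.02, and the proliferation marker Mki67 stood at 0.58 at 1 dpi and 0.40 in MEF.

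Contractile genes stood higher in 2 groups, smooth muscle and striated muscle. Of 21 smooth muscle genes, 11 (52.4%) stood at least 2-fold above MEF and 0 as far below it, the median being 1.02. Actg2, the enteric gamma actin, stood at 1.76 at 1 dpi and -1.42 in MEF (9.09-fold). Cnn1, a calponin that binds actin, stood at 1.40 at 1 dpi and -0.86 in MEF (4.79-fold), and Acta2, the actin of myofibroblasts, stood at 6.11 at 1 dpi and 4.74 in MEF (2.60-fold), with a spot marked as an outlier. Pdlim3 and Lmod1 were 3.71-fold and 3.14-fold higher, Des and the heavy chain Myh11 at least 3.73-fold and 2.92-fold. Tagln was within 2-fold at 1.71-fold, and Synpo2 alone stood below MEF, at -0.51.

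Of 52 skeletal and cardiac genes, 20 (38.5%) stood at least 2-fold above MEF and 0 as far below it, the median being 0.82. Sarcomere genes made up 15 of the 20. Ankrd1, a cardiac ankyrin repeat protein that is also a target of YAP, stood at -0.74 at 1 dpi and -4.03 in MEF (9.78-fold). Tnnt2, cardiac troponin T, stood at -1.98 at 1 dpi and -4.80 in MEF (7.02-fold), and Myh3, the embryonic myosin, stood at -0.89 at 1 dpi and -3.65 in MEF (6.79-fold). Actc1 was 5.39-fold and Myl1 4.94-fold higher, and Actn2 at least 4.98-fold. Genes of excitation and metabolism made up the other 5, among them myoglobin (Mb, 4.36-fold) and the ryanodine receptor Ryr1 (3.26-fold). The factors that specify muscle did not pass 2-fold in any of 11 cases. Myog was nearest, at -4.02 at 1 dpi and -5.0 in MEF, and Myod1 stood at -3.33 at 1 dpi and -3.22 in MEF. Ttn, Tnni2, Myf6, Pax7 and Mef2c also went against the list's median, between -0.54 and -0.18.

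With normexp, 12 of the 20 striated and 7 of the 11 smooth muscle members remained at least 2-fold higher, and the medians were 0.37 and 0.76. Lmod1, Des, Myh11, Actn2 and Ryr1 were among those within 2-fold there, between 0.60 and 0.92. In that setting 495 of 17057 genes (2.90%) were higher.

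Targets of YAP and SRF, factors that respond to tension and actin, stood higher in part. Of 19, 5 stood at least 2-fold above MEF and 0 as far below it, the median being 0.30. Beside Ankrd1 these were the matricellular protein Ccn2, at 3.95 at 1 dpi and 2.39 in MEF (2.95-fold), Fhl1 (2.91-fold), Fhl2 (2.49-fold) and vinculin (Vcl, 2.38-fold). Ccn1, Lats2, Srf and Nuak2 stood below 0, between -0.29 and -0.01. All 13 heat shock genes stood above MEF, and 4 passed 2-fold: Hspb1 (3.10-fold), Hspa1a (2.90-fold), Hspb8 (2.88-fold) and Cryab (2.59-fold). Hspb1, Hspb8 and Cryab are small chaperones, and Hspa1a is an inducible Hsp70.

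The plasminogen system stood higher beside the contractile genes. Of 11 of its members and protease inhibitors, 6 stood at least 2-fold above MEF and 0 as far below it. The activator Plau stood at -1.57 at 1 dpi and -2.97 in MEF (2.63-fold), and the receptor Plaur was 2.33-fold higher. Of 32 collagen chains, 6 (18.75%) were higher and 2 (6.25%) lower, against 5.29% and 5.96% of all genes. The basement membrane chains Col4a1 and Col4a2, which lie head to head in the genome, were 2.61-fold and 2.51-fold higher, Col24a1 3.73-fold and Col7a1 3.62-fold. Col2a1 of cartilage was 3.48-fold and Col15a1 at least 3.92-fold lower, Col15a1 at -0.85 with normexp. Tenascin C (Tnc), a matrix protein of wounds, stood at 0.32 at 1 dpi and -3.20 in MEF (11.5-fold), with a difference of 3.41 by its other probe.

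Macrophage genes stood lower across roles. Of 84 kept, 60 (71.4%) were at least 2-fold lower and 1 higher, with a median of -1.63 and 80 below 0. Their summed level was 510.6 at 1 dpi and 1300.2 in MEF, in units of the 75th percentile of each array. The lower members made up 22 of 31 surface receptors, 14 of 20 complement and secreted genes, 17 of 23 lysosomal and intracellular genes and 7 of 10 transcription factors.

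Among receptors, Csf1r, the receptor for the growth factor that macrophages need, stood at 2.26 at 1 dpi and 5.91 in MEF (12.5-fold lower). Its other probes differed by -3.78 and -0.57, so they do not give the same size. The mannose receptor Mrc1 stood at 1.09 at 1 dpi and 4.81 in MEF (13.2-fold lower), and the lectin Clec10a stood at -5.0 at 1 dpi and 0.40 in MEF (42.2-fold lower). The lectin Clec4n and the scavenger receptor Stab1 were 15.1-fold and 12.7-fold lower. Among secreted and intracellular genes, F13a1, a coagulation factor subunit, stood at -5.60 at 1 dpi and 1.37 in MEF (125-fold lower). Its 1 dpi value lay near the lowest well above background on that array, -6.15, and with normexp the difference was -5.36. The dimmer probe of F13a1 stood at -5.20 in MEF and was not well above background at 1 dpi, with a bound of -0.95. Mmp9, a gelatinase, was 30.2-fold lower with a spot marked as an outlier. The chemokine Ccl8 stood at -0.59 at 1 dpi and 4.15 in MEF (26.7-fold lower), and the transporter Slco2b1 was not well above background at 1 dpi (at least 36.4-fold lower). With normexp Slco2b1 was at -3.69, a smaller difference than this bound. The 3 chains of complement C1q, C1qa, C1qb and C1qc, were 7.61-fold to 9.01-fold lower. Of the factors, Maf was 9.02-fold lower, Irf8 4.88-fold and Spi1 (PU.1) 3.58-fold.

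The list was not uniform. Of its members 13 were at least 8-fold lower, 28 at least 4-fold, and 23 stayed within 2-fold. Itgam (CD11b) stood at 3.70 at 1 dpi and 3.34 in MEF, though its dimmer probes differed by 0.52 and -0.58. The scavenger receptors Marco and Msr1 stood at 2.94 and 0.41 at 1 dpi and at 3.19 and 0.68 in MEF. Cd36 stood at 1.05 at 1 dpi and 0.49 in MEF, and Nr1h3 was 1.03-fold of MEF. The chemokines Ccl3 and Ccl4, which activated macrophages make and which are not on the list, differed by -0.20 and -0.09. Mmp12, the macrophage elastase, went the other way, at -0.23 at 1 dpi and -3.84 in MEF (12.2-fold higher). This rests on 1 probe, as its other probe was not well above background on either array.

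**Figure D4:**
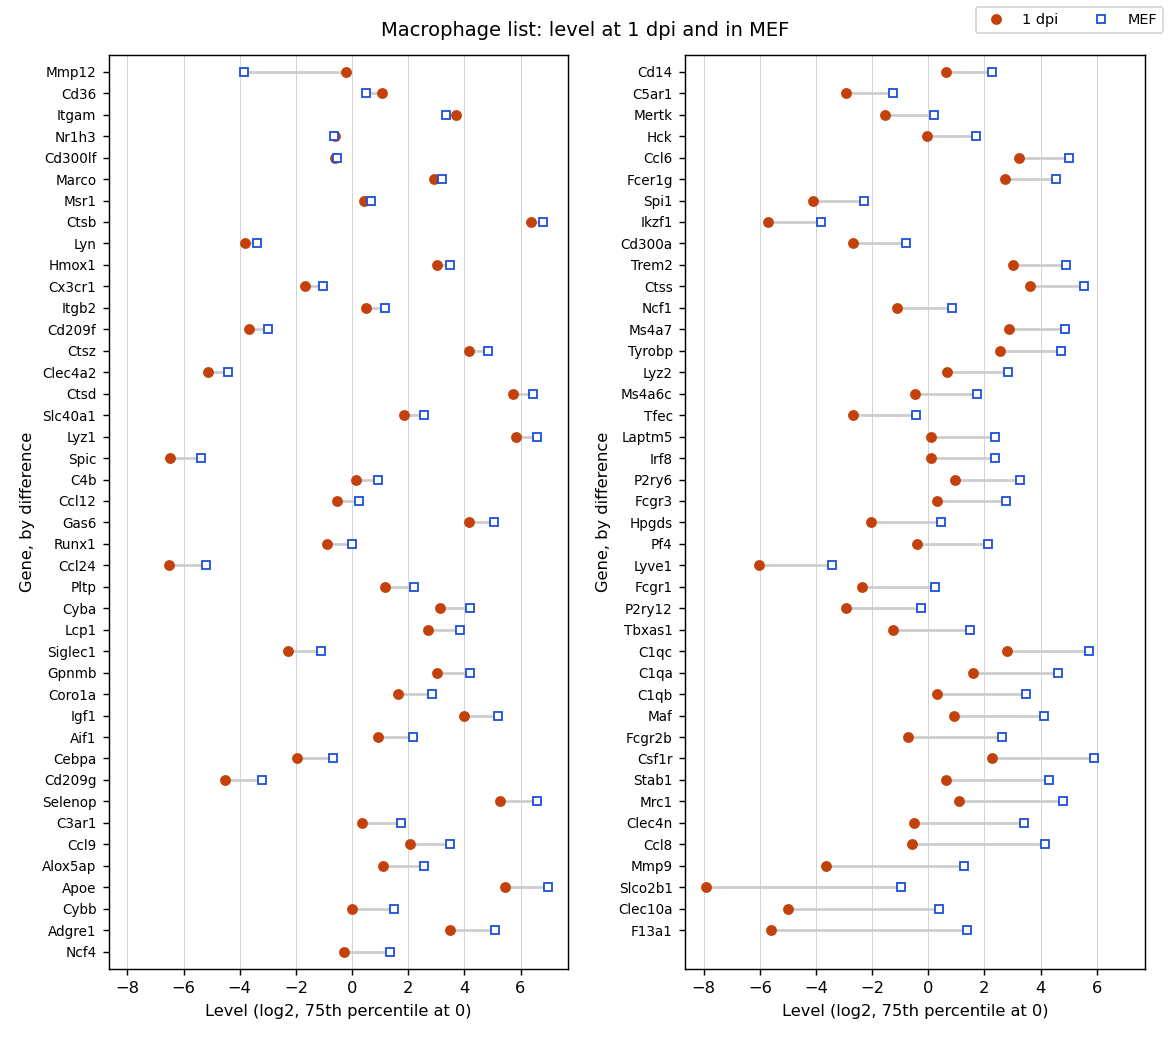
Level of kept members of the macrophage list at 1 dpi (filled circles) and in MEF (open squares), log2 with the 75th percentile at 0, ordered by difference from top left to bottom right. Genes not well above background at 1 dpi, such as Slco2b1, are drawn at their own value. Circles lie left of the squares for most genes. Mmp12, Cd36, Itgam and Nr1h3 at the top left are the 4 exceptions, and F13a1 at the bottom right has the widest gap.

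Promoters of macrophage genes are shown for the same reason as those of interferon genes. The letters searched on both strands were GAGGAAGT, a core bound by the macrophage factor PU.1, with ACTTCCTC as the opposite strand. The build is GRCm38.p6, from RefSeq.
F13a1, chr13:37049167-37049224, - strand: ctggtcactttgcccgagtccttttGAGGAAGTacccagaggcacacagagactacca
C1qc, chr4:136893077-136893134, - strand: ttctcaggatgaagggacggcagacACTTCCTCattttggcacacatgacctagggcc
Pf4, chr5:90772400-90772457, + strand: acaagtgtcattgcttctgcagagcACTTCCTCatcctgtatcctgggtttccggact
Ctss, chr3:95526759-95526816, + strand: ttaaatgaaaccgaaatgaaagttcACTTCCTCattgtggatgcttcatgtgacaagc

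These letters were in 7 of the 43 matched macrophage members that were at least 2-fold lower (16.3%), in 1 of 15 within 2-fold, and in the promoter of Mmp12. They were in 3.58% of all kept genes matched, in 6.92% of those at least 2-fold lower and in 3.26% of those at least 2-fold higher. The CArG box, CCWWWWWWGG with W for A or T, was searched as well, for the smooth muscle list. It was in 1 of 9 matched members at least 2-fold higher (11.1%) and in 2 of 8 within 2-fold (25%). Its share of all kept genes matched was 1.67%.

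Other leukocyte genes shared the direction in part. Of 15 genes of all leukocytes, 8 were at least 2-fold lower and 0 higher. Ptprc (CD45) stood at -1.69 at 1 dpi and 0.16 in MEF (3.61-fold lower), Vav1 was 4.11-fold lower, and Cd52, Itgb7, Arhgdib and Itgal stood above 0, between 0.26 and 0.56. None of 12 lymphocyte genes and none of 9 mast cell and granulocyte genes passed 2-fold. Of 10 Toll-like receptors kept, 7 stood at least 2-fold below MEF and 0 above, with a median of -1.45. Tlr7, a sensor of single-stranded RNA, stood at -0.25 at 1 dpi and 1.58 in MEF (3.57-fold lower), whereas Tlr3, Tlr5 and Tlr9 were within 2-fold.

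Chemokines, the secreted attractants of leukocytes, went both ways. Of 31, 6 stood at least 2-fold above MEF and 7 as far below it. Ccl2, which recruits monocytes, stood at 3.12 at 1 dpi and 1.00 in MEF (4.35-fold), and its neighbours in the genome Ccl7 and Ccl11 were 2.58-fold and 2.10-fold higher. The other higher members were Cxcl10, Cx3cl1 and Ppbp. Ccl8, Pf4, Ccl5, Cxcl16, Ccl6, Ccl9 and Cxcl15 were lower. With normexp, Ppbp was at 0.76 and Cxcl15 at -0.52, within 2-fold. Of 24 inflammatory genes, 2 (8.33%) were higher and 5 (20.8%) lower, against 5.29% and 5.96% of all genes. The receptor antagonist Il1rn was 3.78-fold higher and complement C3 3.45-fold lower. Cd40, a receptor of the tumour necrosis factor family, stood at -2.03 at 1 dpi and -5.27 in MEF (9.49-fold higher).

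The label of induced neurons was checked against markers. Fibroblast genes stood at MEF levels, with Col1a1 at 6.86 at 1 dpi and 6.70 in MEF and Vim at 6.14 at 1 dpi and 5.72 in MEF. Of 30 such genes 3 were at least 2-fold higher, Thy1 (2.65-fold), S100a4 (2.44-fold) and Twist2 (2.07-fold), and Pi16 was 2.38-fold lower. Of 27 pan-neuronal genes, 6 (22.2%) stood at least 2-fold above MEF and 2 below it, the median being 0.35, and with normexp 2 were higher and 2 lower. The higher ones were Nefm (at least 4.94-fold), Nova1 (2.35-fold), Prph (2.29-fold), Bex1 (2.27-fold), Uchl1 (2.21-fold) and Stmn2 (2.19-fold), of which Nova1 and Bex1 remained with normexp. Nrcam and Elavl4 were 3.03-fold and 2.65-fold lower. Tubb3, Dcx and Map2 were within 2-fold of MEF and below primary neurons. Tubb3 stood at -0.50 at 1 dpi, -0.85 in MEF and 4.09 in primary neurons, and Dcx at -4.93 at 1 dpi, -5.27 in MEF and 2.14 in primary neurons. Map2 stood at -0.61 at 1 dpi, -1.38 in MEF and 3.84 in primary neurons. None of 25 proneural and neuronal transcription factors was at least 2-fold higher. By Tubb3, Dcx, Map2 and the fibroblast genes, the data go against the label's word neurons, and the sample is called 1 dpi throughout.

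A few neural genes nevertheless stood apart. Of 19 neural progenitor genes, 5 stood at least 2-fold above MEF and 0 as far below it, the median being 0.51. Fabp7, a lipid carrier of radial glia, stood at -3.0 at 1 dpi and -5.24 in MEF (4.72-fold). The forebrain factor Lhx2 and the intermediate filament Nes were 2.38-fold and 2.15-fold higher, and Eomes at least 2.53-fold. Of 25 synaptic genes 4 were higher. Snap25, a protein of vesicle fusion, stood at 2.69 at 1 dpi and 1.04 in MEF (3.15-fold). Svop, a vesicle protein, stood at -2.76 at 1 dpi and was not well above background in MEF (at least 14.3-fold), and Syt1 was at least 4.01-fold higher. With normexp, 3 of the 5 neural progenitor genes and 2 of the 4 synaptic genes remained, Lhx2 standing at 0.70, Eomes at 0.55 and Syt1 at 0.59. Svop was at 1.92 there, a smaller difference than its bound.

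Positional and signalling genes differed in a few members. Of 38 Hox genes 7 stood at least 2-fold above MEF and 0 as far below it, the median being 0.46. The 7 were Hoxc13, Hoxd1, Hoxb13, Hoxa11, Hoxd10, Hoxc11 and Hoxc6. With normexp 4 remained, and Hoxb13 (0.87), Hoxd10 (0.81) and Hoxc11 (0.33) were within 2-fold. Hoxc13 stood at -2.47 at 1 dpi and -5.88 in MEF (10.6-fold), Hoxd1 at -2.96 at 1 dpi and -5.12 in MEF (4.47-fold). With normexp Hoxc13 was at 2.04 and Hoxd1 at 1.18. Hoxa3, Hoxa2, Hoxb3, Hoxc4, Hoxb5 and Hoxc5 stood below 0, between -0.67 and -0.06. Of 39 Wnt pathway genes, 9 were at least 2-fold lower and 3 higher. Rspo1, which amplifies Wnt signals, stood at -2.86 at 1 dpi and 0.12 in MEF (7.90-fold lower). The target Axin2 and the receptors Fzd4, Lrp6, Fzd1 and Lgr5 were 2.38-fold, 2.38-fold, 2.13-fold, 2.12-fold and 2.09-fold lower. Wnt11 (2.67-fold), Sfrp2 (2.49-fold) and Wnt6 (2.02-fold) were the other lower members, and Fzd10 (at least 4.5-fold), Rspo2 (2.95-fold) and Dkk3 (2.38-fold) the higher ones. Wnt6 was at -0.55 and Fzd10 at 0.97 with normexp. In the BMP and TGF-beta pathway, 5 of 47 (10.6%) were higher and 4 (8.51%) lower, against 5.29% and 5.96% of all genes. Bmp2 was 7.08-fold lower, its antagonist Grem1 3.30-fold higher, Inhba 2.97-fold higher and the receptor Tgfbr1 2.68-fold lower.

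Stress and growth responses were uneven. Of 36 immediate early genes, 7 were at least 2-fold lower and 2 higher, with a median of -0.41. Fos stood at -0.55 at 1 dpi and 1.70 in MEF (4.74-fold lower), Zfp36 was 2.97-fold lower, and Fosl1, its relative, stood at -3.64 at 1 dpi and -5.19 in MEF (2.92-fold higher). Dusp4, Btg2, Egr3, Egr4, Myc, Klf4, Npas4, Arc and Atf3 also stood above MEF, between 0.07 and 1.09. With normexp the 7 lower genes remained and none was higher, Fosl1 standing at 0.82 and Dusp4 at 0.78. Of 21 genes of the integrated stress response, Stc2 (5.18-fold), Ddit4 (3.17-fold) and Ddit3 (2.63-fold) were higher. None of 18 genes of the unfolded protein response, of 53 ribosomal protein genes, of 36 genes of oxidative phosphorylation and of 26 proteasome genes passed 2-fold. Of the proteasome genes 25 nevertheless stood above MEF, with a median of 0.31.

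The genes furthest from MEF included many outside these lists. The furthest higher was Lrrc10b, at -1.61 at 1 dpi and -5.84 in MEF (18.8-fold). The serine protease Klk8 stood at -1.06 at 1 dpi and -4.89 in MEF (14.3-fold). With normexp Lrrc10b was at 2.85 and Klk8 at 2.87, below Perp at 3.77. Ptprb, the receptor phosphatase of endothelium, was 12.2-fold higher by its brighter probe and 1.27 on the log2 scale by the other, while of 16 endothelial genes kept Flt1 (2.87-fold) and Emcn (3.40-fold) were also higher, Cdh5 was 3.21-fold lower, and Pecam1 and Kdr were within 2-fold, as Emcn (0.68) and Cdh5 (-0.83) were with normexp. Hoatz was 10.7-fold, the leukocyte receptor Slamf9 9.63-fold and the phospholipase Pla1a 9.35-fold higher. At a bound stood Pramel31 (at least 11.6-fold), Sprr2k (9.69-fold), Wdr72 (9.30-fold) and Samd12 (9.03-fold).

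Among the furthest lower genes, carbonic anhydrase Car2 stood at -3.37 at 1 dpi and 1.76 in MEF (34.9-fold). Transferrin (Trf), the iron carrier of plasma, stood at 0.85 at 1 dpi and 4.87 in MEF (16.2-fold), and its other probe differed by -4.08. Upk1a, a uroplakin, was 22.6-fold lower, the scavenger receptor Stab2 19.6-fold, Nxpe5 18.9-fold, the BMP antagonist Chrdl2 18.5-fold and the cytokine receptor chain Csf2rb2 18.1-fold. The ectonucleotidase Entpd1 was 16.7-fold, the arginase Arg2 16.1-fold, Cd83 14.8-fold and the natriuretic peptide Nppc 13.9-fold lower. With normexp Entpd1 was at -2.61, Arg2 at -2.99, Nppc at -3.14 and Chrdl2 at -3.18, while Trf was at -3.97. At a bound stood Gpr34 (at least 14.8-fold lower), Chp2 (11.8-fold), Cdhr3 (9.83-fold) and Akr1b7 (8.87-fold). With normexp their log2 differences were -2.62, -2.17, -1.86 and -1.84.

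Some gene families, picked for their shares after the values were seen, had several called members. Of 8 Apol genes kept, 4 stood at least 2-fold above MEF and 0 as far below it, the median being 1.35. Of 10 genes of the prolactin family (Prl), 4 were higher and 0 lower, led by Prl8a9 at 2.68 above MEF. Of 10 Mup genes, which code for major urinary proteins, 9 were lower, between -1.78 and -1.26. The Mup genes are near copies of each other, so they may be 1 signal read by several probes. Of 12 Ms4a genes, 7 were lower and Ms4a4d was higher, at 1.73. In the RefSeq gene order, 16 runs of at least 3 neighbouring kept genes were at least 2-fold higher throughout and 22 were lower throughout, which took in 49 of the 903 higher genes and 77 of the 1016 lower ones. The higher runs included Ccl2, Ccl7 and Ccl11 and the protease genes Mmp13, Mmp12 and Mmp1b. The lower runs included the lectin genes from Clec4b2 to Clec4e, the C1q chains, and Apoc4, Apoc1 and Apoe. The 9 lower Mup genes made up 1 of the lower runs. Some runs were families by name, such as the Ces2 and Serpina3 genes, where hybridisation may likewise be shared. How many runs the overall shares would give was not computed, so the counts only describe the gene order.

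The later arrays show which of the early differences were still there, with the limit that they were read in another scan. Isg15, at 3.96 at 1 dpi, stood at 4.3, 4.77 and 4.19 at 3, 5 and 7 dpi. Oasl1, at 0.72 at 1 dpi, stood at 0.50, 1.82 and 0.58. Both thus stayed near or above their 1 dpi level. Perp, at 2.12 at 1 dpi, stood at 1.78, 1.79 and -0.49 at 3, 5 and 7 dpi, and Actg2, at 1.76 at 1 dpi, stood at 2.71, 2.71 and -0.77. Mrc1, at 1.09 at 1 dpi, stood at -2.41 and -4.33 at 3 and 5 dpi and was not well above background at 7 dpi. F13a1, at -5.60 at 1 dpi, already lay near its later values of -5.51 and -5.61 at 3 and 5 dpi. Marco, at 2.94 at 1 dpi, stood at -1.96, 0.48 and -0.32, and Msr1, at 0.41 at 1 dpi, at -1.29, -4.34 and -4.97. Mmp12, at -0.23 at 1 dpi, stood at -3.52, -2.30 and -3.70 later, and at -3.49 in primary neurons, so the 1 dpi array held its highest level among the 6. The median level of the macrophage list was 2.23 in MEF, 0.30 at 1 dpi, and -1.34, -2.65 and -3.46 at 3, 5 and 7 dpi.

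**Figure D5:**
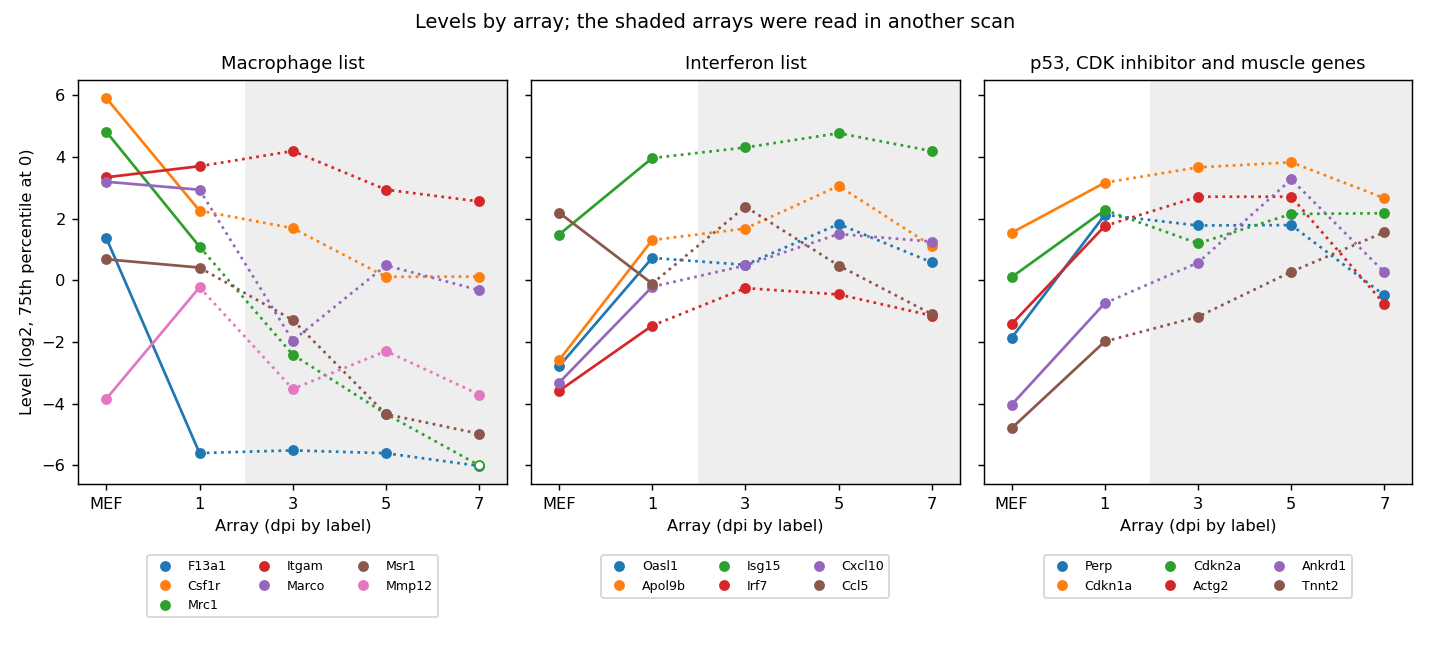
Levels of 19 named genes on the MEF array and at 1, 3, 5 and 7 dpi, log2 with the 75th percentile at 0; filled points were well above background and the shaded arrays were read in another scan. The solid lines mark the pair compared here. F13a1 was already near its later level at 1 dpi, Mrc1 was lower again at each later time, Mmp12 was highest at 1 dpi, and the interferon genes other than Ccl5 stayed above MEF.

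Dim genes leaned higher, while bright genes leaned lower only in the counts past 2-fold. In the dimmest of 10 level bins the median difference was 0.23, with 117 genes at least 2-fold higher and 37 lower. In the brightest bin the median difference was 0.04, with 35 higher and 96 lower. Of 4036 genes with several probes measured on both arrays, 68.1% had all probes in the same direction. The share was 90.2% for the 133 called higher and 83.7% for the 221 called lower. All probes passed 2-fold for 79 and 93 of these. The probe that called a gene is among those compared where it was measured on both arrays. The shares for called genes are therefore no independent check of the calls. For 25 genes called higher another probe stood below 0.3, and for 67 called lower another stood above -0.3.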

How the data were processed

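RNA of 1 culture per group was measured on 1-colour Agilent arrays, and 2 of the 6 arrays were compared. The log2 values are those the authors deposited in the series table, which scaled each array so that its 75th percentile is 0. The scanner's intensity values and flags are, per the file headers, background-corrected processed signals. The submitters' processing notes name version 11.0.1.1 of Agilent Feature Extraction. The number of arrays limits the precision.

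Probes were named through the accession on the array and the RefSeq gene table, and the brightest kept probe stood for a gene. Where a probe was not well above background on 1 array, that side was set to the higher of its own value and the lowest value well above background there, which gives the bound. That lowest value is taken over the whole array and is not a detection limit of the probe. A gene was called at a 2-fold difference, with no test. The rule for named genes took a fixed set of genes, the 15 furthest measured and 5 furthest bounded in each direction, up to 6 members per described list past 2-fold, and members against the list's median. Other genes named were chosen after their values were seen. The members and lists were chosen with earlier results of these data known. Alternatives were the scaling (with normexp, offset 50, and quantile normalization), the background filter, the probe rule, the threshold and outlier spots. Scripts were tested on simulated data with 200 changed genes. All simulated probes were above background on both arrays and the only spread was the array error. Bounds and changes in dim genes were thus not tested. R 4.3.3 with limma 3.58.1 and Python 3.11.15 with pandas 2.3.3, numpy 2.4.6 and matplotlib 3.10.9 were used. A few single genes are not reported here, though they count in the list totals.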

Additional observations from a re-analysis of the deposited data

How the results depend on the processing

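No paired analysis was possible because each group had 1 array. The numbers of genes at least 2-fold higher and lower were 903 and 1016. With normexp and quantile normalization 495 were higher, and with brighter genes only (8779 genes with a mean level of at least -1) 235 were higher and 530 lower, where fewer genes were counted. At a 4-fold threshold they were 178 and 228. With no filter they were 1339 and 1302. The share of called genes that were higher was 47.1%, and it was 38.7% with normexp and 30.7% with brighter genes only. The smooth muscle median was 0.76 with normexp, and the skeletal and cardiac muscle median was 0.37 with normexp and 0.48 with brighter genes only. The value of 0.48 rests on 5 members. With brighter genes only, the medians of growth factors (-0.079), neural progenitor genes (-0.0039), Schwann and neural crest genes (-0.52), cartilage and bone genes (0.17), germline genes (-0.40) and proneural factors (-0.18) changed sign. In that order they rest on 21, 5, 5, 3, 2 and 6 members. With no filter the medians of cartilage and bone (0.00031), pluripotency (0.02) and adipocyte genes (0.10) did, and with the mean over members that of MHC class I (0.02). The germline median was -0.03 with normexp and with quantile normalization of the table, and the synaptic median was -0.03 with quantile normalization of the table. Tet1 stood at -0.14 as a mean over its probes. Of the fixed and furthest genes, 50 passed 2-fold, and all 50 did so with normexp. Most of them were picked for large differences in these same values, so this count says little about other genes. Over all genes, normexp gave 495 higher and 783 lower in place of 903 and 1016. The log2 difference of 11 of the 50 was more than 1.5 times smaller with normexp. The cause of these shifts was not tested. All 57 list medians kept their sign under the own scaling of the scanner signals and under centring on the median. Scaling on the spike-in spots was not run. Differences between cultures of 1 group were not measured, and dim genes rest on signals near background.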

Other observations

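Of 8107 kept probes without a gene name, 278 (3.43%) were at least 2-fold higher and 304 (3.75%) lower at 1 dpi. Of the 903 genes called higher 177 were in any of the 57 lists, and of the 1016 called lower 142 were, 60 of them macrophage genes. Of 13 genes of cilia kept, 4 (30.8%) were at least 2-fold higher and 1 (7.69%) lower. Of 27 epithelial genes, 7 (25.9%) were higher and 4 (14.8%) lower. Over all genes kept, 5.29% were higher and 5.96% lower. The adenovirus receptor Cxadr stood at -1.83 at 1 dpi and -1.75 in MEF, and none of 7 genes of adenovirus entry passed 2-fold.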
